A study of Mus musculus with 23 samples.

Results

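Plasma membrane amino acid transporters were followed in RNA precipitated from spinal cord through a ribosome tag. The 10 transporter genes, Slc7a1, Slc7a3, Slc7a5, Slc7a11, Slc3a2, Slc38a1, Slc38a2, Slc1a4, Slc1a5 and Slc6a9, were chosen by name from the 38924 genes in the deposited tables, and all 10 were present in all 23 libraries' tables. Earlier results of these data were known when these genes were chosen. The mice were 2 weeks old, on the mixed background given as B6.CgxB6.129, and every animal carried 1 copy of the HARPL22 RiboTag allele, which makes a haemagglutinin-tagged ribosomal protein after Cre recombination. The 4 groups were 6 libraries from GarsC201R/+ mice with ChAT-Cre (mutant Cre, labelled RplC201RChAT), 5 from Gars+/+ mice with ChAT-Cre (wild-type Cre, RplChAT), 6 from GarsC201R/+ mice without Cre (mutant no-Cre, NegCtrlC201R) and 6 from Gars+/+ mice without Cre (wild-type no-Cre, NegCtrlWT). ChAT-Cre is active in cholinergic cells, in the spinal cord chiefly motor neurons, so the mutation was present in every cell of the mutant mice while the tag was directed to cholinergic cells. The C201R change lies in Gars, which encodes the synthetase that charges tRNA with glycine, and acts dominantly. Libraries without Cre hold RNA that was precipitated without a tag.

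Amino acid transporters differ in what they carry and in how they are assembled. Slc7a1 and Slc7a3 encode transporters of the cationic amino acids arginine and lysine. Slc7a5 encodes an exchanger of large neutral amino acids such as leucine, and Slc7a11 encodes an exchanger of cystine for glutamate. Both of these light chains reach the cell surface bound to the heavy chain encoded by Slc3a2. Slc38a1 and Slc38a2 encode sodium-coupled transporters of glutamine, alanine and related amino acids, Slc1a4 and Slc1a5 encode exchangers of alanine, serine, cysteine and related neutral amino acids, and Slc6a9 encodes the glycine transporter GlyT1, found largely on glia in the adult spinal cord. Several of these genes are known targets of the transcription factor ATF4, which is translated when amino acids are short or when other branches of the integrated stress response are active.

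ATF4 binds, together with a partner, a composite element whose core was searched for here as the letters TGATGNAA on both strands of the RefSeq promoter windows on GRCm38.p6, each 300 bases long from 250 before to 50 after an annotated transcription start. The windows held 6 of the 10 genes in 9 windows, namely Slc7a1, Slc7a11, Slc3a2, Slc38a2, Slc1a4 and Slc6a9. Windows for Slc7a3, Slc7a5, Slc38a1 and Slc1a5 were not used here. The letters occurred in the windows of 2 of the 6 genes, Slc7a11 and Slc1a4, and both are shown to 20 bases past the start, 5′ to 3′ on the gene's strand, with the matches in capitals. Each spans 270 bases of the minus strand, chr3:50443594-50443863 for Slc7a11 and chr11:20332694-20332963 for Slc1a4.
Slc7a11: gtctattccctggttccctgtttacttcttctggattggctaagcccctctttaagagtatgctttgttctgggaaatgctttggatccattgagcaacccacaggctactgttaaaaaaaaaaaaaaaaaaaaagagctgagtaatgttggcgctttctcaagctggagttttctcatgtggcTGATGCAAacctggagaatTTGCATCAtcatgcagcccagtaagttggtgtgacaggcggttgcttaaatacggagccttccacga
Slc1a4: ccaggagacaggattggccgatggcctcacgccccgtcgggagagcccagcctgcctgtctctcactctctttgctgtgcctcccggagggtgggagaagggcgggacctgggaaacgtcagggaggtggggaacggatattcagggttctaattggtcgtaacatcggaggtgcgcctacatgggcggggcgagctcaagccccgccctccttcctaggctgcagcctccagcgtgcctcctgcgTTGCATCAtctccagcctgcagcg
Slc7a11 held 2 matches facing each other, TGATGCAA from 66 to 59 bases before the start on the gene's strand and TTGCATCA, its reverse complement, from 47 to 40 bases before the start. Slc1a4 held 1 match on the opposite strand, TTGCATCA, from 4 bases before to 3 bases after the start. Of all 32851 windows, 3.97% held at least 1 match and 0.07% held 2 or more. A match describes the letters of these windows, and windows without one say nothing of binding elsewhere.

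**Figure D1:**
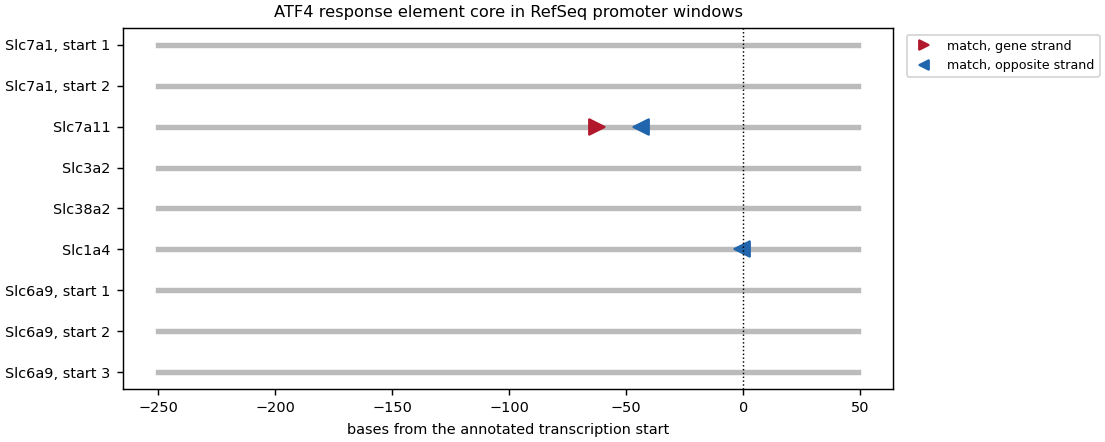
Matches to the core letters of the ATF4 response element in the 9 promoter windows, by distance in bases from the annotated transcription start. Triangles mark matches on the gene's strand (red) or the opposite strand (blue); grey bars are the windows. Slc7a11 holds 2 matches upstream of its start, and Slc1a4 holds 1 at its start.

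Depth set how firmly low genes could be measured. The sum of expected counts lay between 11696397 and 14511394 in mutant Cre, between 9031654 and 13636772 in wild-type Cre, between 12042625 and 19671869 in mutant no-Cre and between 12538407 and 18806506 in wild-type no-Cre libraries. Leaving ribosomal RNA aside, the mutant Cre libraries held 2.93 to 6.24 M (mega) counts, the wild-type Cre libraries 1.21 to 4.47 M, the mutant no-Cre libraries 0.594 to 4.89 M and the wild-type no-Cre libraries 2.17 to 5.58 M. The level that 3 counts represent in a library, the limit that a count of 0 allows for counting error only, was 0.108 to 0.185 counts-per-million (CPM) in mutant Cre, against 0.144 to 0.598 CPM in wild-type Cre libraries. Chat, the choline acetyltransferase gene that defines the tagged cells, averaged 37.2 ± 16.2 CPM in the 6 mutant Cre and 59.4 ± 10.6 CPM in the 5 wild-type Cre libraries (mean ± SD, as for all groups below), against 2.76 ± 2.15 CPM in mutant and 2.15 ± 1.80 CPM in wild-type libraries without Cre (n = 6 each). Gars itself averaged 77.0 ± 26.2 CPM in mutant Cre and 61.3 ± 9.31 CPM in wild-type Cre libraries, and the table of genes does not separate the mutant from the normal allele. The tagged gene Rpl22 averaged 12.4 ± 2.16 CPM in mutant Cre and 10.9 ± 2.11 CPM in wild-type Cre libraries.

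The Cre libraries were not equal in their content of other cells. The summed level of 11 motor neuron and cholinergic markers ranged from 226 to 834 CPM in mutant Cre, lowest in replicates 6 and 4, against 711 to 979 CPM in wild-type Cre libraries. The 12 oligodendrocyte markers summed to 927 to 7189 CPM in mutant Cre, highest in replicates 6 and 4, against 619 to 3432 CPM in the wild-type Cre libraries, of which replicate 2 was highest. The 12 astrocyte markers summed to 301 to 846 CPM in mutant Cre, against 305 to 570 CPM in wild-type Cre libraries, and the 12 microglial markers to 11.5 to 205 CPM in mutant Cre, against 11.1 to 17.2 CPM in wild-type Cre libraries. The 12 endothelial and pericyte markers summed to 13.6 to 207 CPM in mutant Cre, against 6.18 to 72.2 CPM in wild-type Cre libraries, and the 6 erythroid genes to 53.7 to 1161 CPM in mutant Cre, against 53.2 to 291 CPM in wild-type Cre libraries. The 5 inhibitory neuron markers summed to 41.1 to 55.8 CPM in mutant Cre, against 24.9 to 73.6 CPM in wild-type Cre libraries, and the 4 markers of excitatory interneurons to 9.39 to 16.6 CPM in mutant Cre, against 4.33 to 11.05 CPM in wild-type Cre libraries. Of all these markers only Tlx3, of excitatory interneurons, was at 0 in every library of a Cre group, the wild-type one. In such precipitates, fewer cells of a type and less RNA per cell cannot be told apart.

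The first comparison asked which transporter transcripts differed between GarsC201R/+ and Gars+/+ mice in the precipitates with ChAT-Cre. These hold untagged background besides the RNA of tagged ribosomes. All 9 transporters that could be tested had fitted values above 0 in the mutants, and 3 of them, Slc7a1, Slc7a5 and Slc3a2, rose at an adjusted p under 0.05, the threshold for calling a change throughout. Over all 12399 genes tested, 41 changed (0.331%), 29 of them higher (0.234%). Slc7a3 and Slc7a11 passed the filter on low counts through the mutant libraries, where they were higher, and so carry no weight in the counts and median given here. The transporters were chosen with earlier results of these data known, so setting them against all genes is a description only. The median log2 fold change was 1.51 over the 9 transporters and 0.06 over all genes. With library totals in place of trimmed-mean scaling the median of all genes was 0.79, 17 genes were higher and 0 lower, and 0 transporters passed although all 9 had log2 fold changes above that median. At an unadjusted p under 0.05, 8 of the 9 transporters were higher in mutants, against 8.16% of all genes. For 5 of the 9, Slc7a1, Slc7a3, Slc7a5, Slc7a11 and Slc3a2, the lowest mutant library lay above the highest wild-type library, against 1.09% of all genes.

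**Figure D2:**
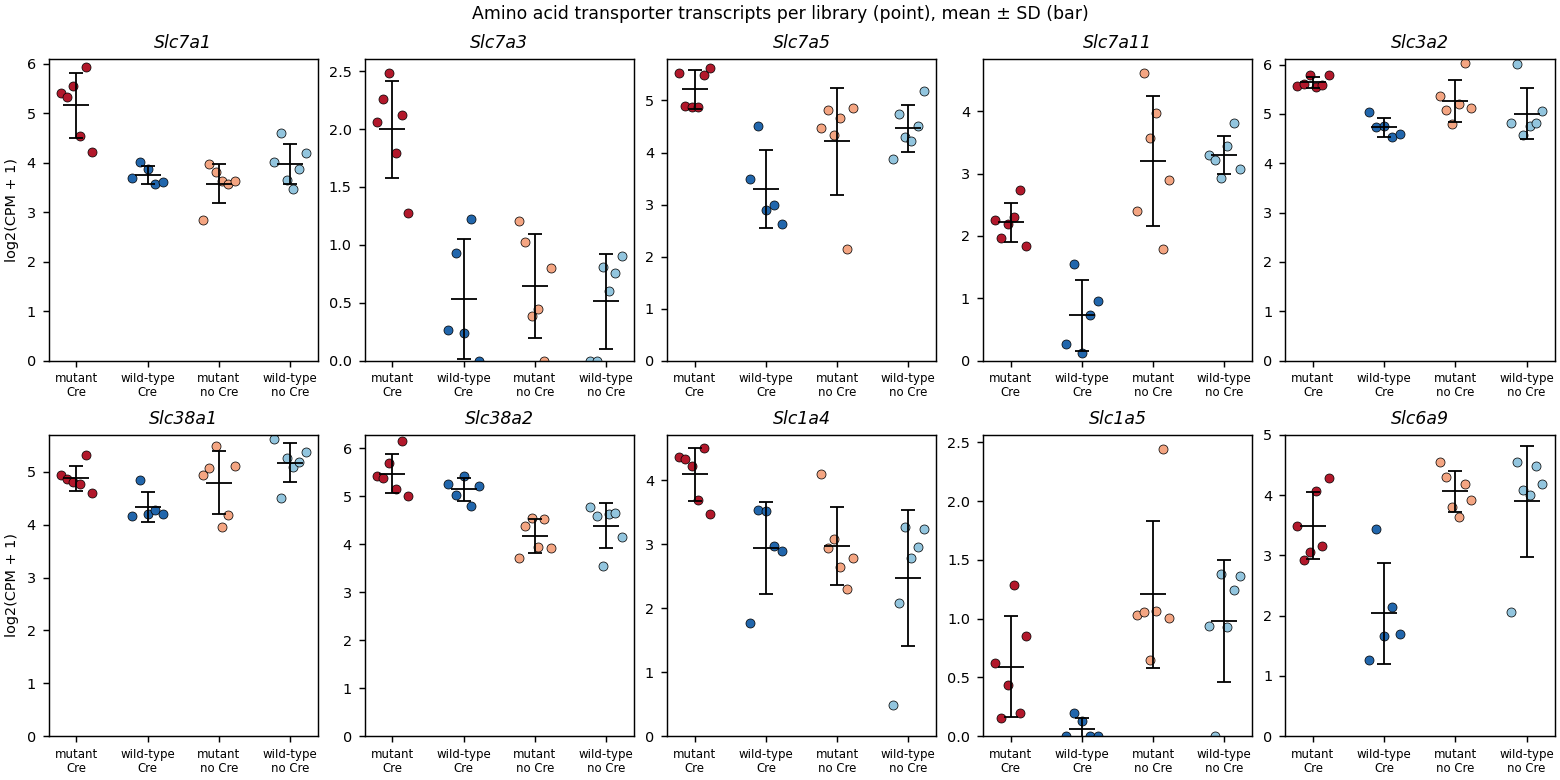
Level of each transporter transcript in every library as log2(CPM + 1), by group, with each group's mean and SD as bars; panels have their own vertical scales. The mutant Cre points lie above all wild-type Cre points for Slc7a1, Slc7a3, Slc7a5, Slc7a11 and Slc3a2, and the no-Cre groups of both genotypes overlap for every gene.

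Slc7a1 (ENSMUSG00000041313, chr5:148327410-148399904, minus strand, GENCODE M21 on GRCm38, as for all gene positions here) stood at 17.5 to 60.3 CPM in mutant Cre libraries with a median of 40.4 CPM. Wild-type Cre libraries held 11.97, 15.1, 13.54, 10.9 and 11.1 CPM. The groups did not overlap, and the lowest mutant libraries, replicates 6 at 17.5 CPM and 4 at 22.2 CPM, were those lowest in motor neuron and highest in oligodendrocyte markers. The gene was 2.89-fold higher in mutants (95% interval 2.01 to 4.15), a log2 fold change of 1.53 (SE 0.24, adjusted p = 0.0148). The adjusted p lay between 0.0512 and 0.0623 without any of wild-type Cre replicates 1, 3, 4 or 5, at log2 fold changes of 1.48 to 1.55. Without mutant Cre replicates 4 and 6 and wild-type Cre replicate 2 together, the adjusted p was 0.000155 at a log2 fold change of 1.85. That alternative was added after the data were seen. It leaves out the lowest mutants and the highest wild type of this gene. A larger fold was thus fixed in advance, and it is no added support.

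Slc7a3 (ENSMUSG00000031297, chrX:101079210-101086020, minus strand), the other cationic amino acid transporter and one known mainly from neurons, held fewer counts. Its mutant Cre libraries ranged from 1.42 to 4.58 CPM with a median of 3.26 CPM. Wild-type Cre libraries held 0.199, 0.909, 0.181, 1.33 and 0 CPM, which rest on 38 counts in all against 448 in the mutants. The groups did not overlap, but the fitted log2 fold change of 2.40 (SE 0.58) had an adjusted p of 0.0899 and so did not pass. Leaving out wild-type Cre replicate 2 gave a log2 fold change of 2.65 with an adjusted p of 0.0301. Over all genes, 10 to 1054 were called as each library was left out, against 41 with all libraries. This pass, and the like passes below without the same library, are therefore not separate support for each gene.

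Slc7a5 (ENSMUSG00000040010, chr8:121881150-121907694, minus strand), the leucine exchanger, ranged from 28.2 to 48.3 CPM in mutant Cre libraries with a median of 36.3 CPM. Wild-type Cre libraries held 10.2, 21.7, 6.41, 7.00 and 5.15 CPM, and the highest of these, replicate 2, was the wild-type library highest in oligodendrocyte markers. The groups did not overlap. Slc7a5 was 3.64-fold higher in mutants (95% interval 2.24 to 5.91), a log2 fold change of 1.86 (SE 0.33, adjusted p = 0.0232). The adjusted p lay between 0.052 and 0.0958 without any of mutant Cre replicates 3 or 5 or wild-type Cre replicates 1, 3, 4 or 5, at log2 fold changes of 1.71 to 1.92. Gm20388, a gene model on the opposite strand with 928 counts over all 23 libraries, overlaps the locus, and reads from the pair cannot be told apart without the counting strand, which is not given in the sources used here.

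Slc3a2 (ENSMUSG00000010095, chr19:8706882-8723369, minus strand), the heavy chain shared by Slc7a5 and Slc7a11, had the narrowest spread relative to its mean in mutant Cre libraries. Its 6 mutant Cre libraries lay between 45.6 and 54.3 CPM with a median of 47.4 CPM. The wild-type Cre libraries held 31.7, 25.7, 26.0, 21.99 and 23.2 CPM, all below the lowest mutant. The gene was 1.87-fold higher in mutants (95% interval 1.47 to 2.39), a log2 fold change of 0.90 (SE 0.16, adjusted p = 0.0257). Its call was lost without any of mutant Cre replicates 3, 4 or 5 or wild-type Cre replicates 3, 4 or 5, with adjusted p from 0.0502 to 0.107 at log2 fold changes of 0.84 to 0.93.

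Slc7a11 (ENSMUSG00000027737, chr3:49892526-50443614, minus strand), the cystine exchanger whose promoter holds the 2 facing matches, ranged from 2.59 to 5.70 CPM in mutant Cre libraries with a median of 3.68 CPM. Wild-type Cre libraries held 0.199, 1.91, 0.0903, 0.666 and 0.937 CPM. The groups did not overlap, the wild-type values rested on 58 counts in all, and replicate 2, richest in glial markers among wild types, was again the highest. The fitted log2 fold change of 2.16 (SE 0.50) did not pass (adjusted p = 0.0854). Without wild-type Cre replicate 2 it was 2.86 with an adjusted p of 0.00959.

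Ratios within a library are given for 4 pairs of genes as a description, with no test, since the pairs were chosen after these rises had been seen. The log2 ratio of Slc7a5 to Slc3a2 counts was -0.44 ± 0.39 in the 6 mutant Cre and -1.54 ± 0.76 in the 5 wild-type Cre libraries, a difference of 1.10. The ratio of Slc7a11 to Slc3a2 was -3.75 ± 0.46 in mutant Cre and -5.50 ± 1.55 in wild-type Cre libraries, a difference of 1.75. The wild-type side of that ratio rested on 58 counts of Slc7a11 in all and leans on the pseudocount of 0.5. On the deposited TPM (transcripts-per-million) the difference was 0.67, with a smaller pseudocount added to the TPM. Slc7a11 stood at only 0.03 TPM in wild-type Cre replicates 1 and 3, so this value leans on its pseudocount as well. It is therefore no check on the size of the difference. The ratio of Slc7a1 to Slc7a5 differed by -0.56, and that of Slc38a2 to Slc38a1 by -0.23.

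The sodium-coupled transporters Slc38a1 and Slc38a2 overlapped between the genotypes. Slc38a2 (ENSMUSG00000022462, chr15:96687392-96699730, minus strand) ranged from 31.4 to 70.3 CPM in mutant Cre libraries with a median of 41.6 CPM, against 37.3, 31.7, 41.9, 27.0 and 36.3 CPM in wild-type Cre libraries. The groups overlapped and the log2 fold change was 0.32 (SE 0.20, adjusted p = 0.403, 95% interval -0.10 to 0.74). The neighbouring Slc38a1 (ENSMUSG00000023169, chr15:96571418-96642913, minus strand) ranged from 23.2 to 38.7 CPM in mutant Cre libraries with a median of 27.6 CPM, against 17.0, 27.6, 17.5, 18.3 and 17.3 CPM in wild-type Cre libraries. Only wild-type replicate 2 reached the mutant range. The log2 fold change was 0.52 (SE 0.15, adjusted p = 0.141), and without that library 0.64 with an adjusted p of 0.0216.

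Slc1a4 (ENSMUSG00000020142, chr11:20302180-20332713, minus strand), the serine and alanine exchanger, ranged from 10.0 to 21.6 CPM in mutant Cre libraries with a median of 18.4 CPM, against 2.39, 10.6, 10.4, 6.83 and 6.44 CPM in wild-type Cre libraries. Mutant replicate 6 fell within the wild-type range, and the log2 fold change of 1.12 (SE 0.27) had an adjusted p of 0.0916. Without wild-type Cre replicate 2 it was 1.25 with an adjusted p of 0.0245. Its relative Slc1a5 (ENSMUSG00000001918, chr7:16781340-16798274, plus strand) was close to absent from the Cre precipitates. Mutant Cre libraries held 15, 3, 6, 38, 4 and 13 counts and wild-type Cre libraries 0, 3, 1, 0 and 0. Scaled for depth, the highest mutant levels were 1.44 CPM in replicate 4 and 0.801 CPM in replicate 6, the mutant libraries richest in glial markers, and the gene was too low in this comparison to be tested.

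Slc6a9 (ENSMUSG00000028542, chr4:117834506-117875198, plus strand), the glycine transporter, was highest in the libraries richest in glial marker RNA. Its levels in mutant Cre libraries 1 to 6 were 10.2, 6.60, 7.34, 15.7, 7.91 and 18.5 CPM, and those in wild-type Cre libraries 1 to 5 were 1.40, 9.85, 2.17, 3.41 and 2.23 CPM. The highest mutants, replicates 6 and 4, and the highest wild type, replicate 2, were the libraries highest in oligodendrocyte markers. The log2 fold change was 1.51 (SE 0.45, adjusted p = 0.146). It was 0.86 (adjusted p = 0.373) with a glial marker score as a covariate, 1.62 (adjusted p = 0.00391) without those 3 libraries, and 2.21 (adjusted p = 0.0108) without wild-type Cre replicate 2 alone. The part of glial RNA in this result was not tested further. Ccdc24 and B4galt2, on the opposite strand with 505 and 904 counts over all libraries, overlap the locus, and their reads cannot be told apart from those of Slc6a9.

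**Figure D3:**
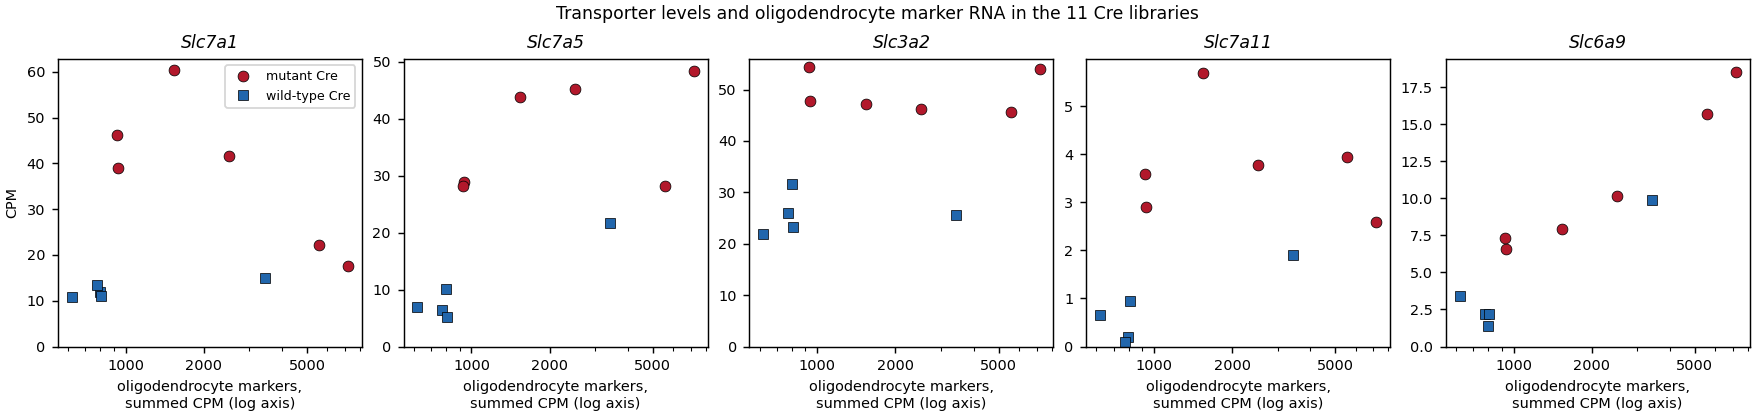
CPM of 5 transporters in the 11 Cre libraries against the summed CPM of 12 oligodendrocyte markers (log axis); circles are mutant Cre and squares wild-type Cre libraries. Slc6a9 is highest in the libraries with most marker RNA in both genotypes, and Slc3a2 lies between 45.6 and 54.3 CPM in all mutants. Slc7a1 is lowest in the mutants, but highest in the wild type, with most marker RNA.

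The leading number of a library's title, whose meaning the labels do not give, was treated as a possible batch. Numbers 20302 and 20401 each held 2 mutant and 2 wild-type Cre libraries. Slc7a1 stood at 39.1 and 41.7 CPM in mutants against 11.1 and 13.54 CPM in wild types under 20302, and at 46.1 and 60.3 CPM in mutants against 11.97 and 15.1 CPM under 20401. Slc38a2 under 20302, and Slc38a1 and Slc6a9 under 20401, overlapped between the genotypes. With the number as a block, over the 8 libraries of these numbers, 1 transporter passed (Slc7a1, log2 fold change 1.72, adjusted p = 0.00213), while Slc7a5 (1.78, adjusted p = 0.0913) and Slc3a2 (0.75, adjusted p = 0.282) did not. Mutant Cre replicates 4 and 6, the libraries with least motor neuron RNA, share number 18405, which no wild-type Cre library has.

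Without Cre, the transporters did not differ detectably between genotypes. Of the 9 tested, 0 changed, against 0 of 12588 genes (0%), and DESeq2 and limma-voom also called 0 genes. At an unadjusted p under 0.05, 0 of the 9 and 565 of all genes (4.49%) were found. Fitted log2 fold changes lay between -0.39 for Slc7a1 and 0.49 for Slc1a4. Slc7a5 averaged 20.6 ± 9.03 CPM in mutant and 22.1 ± 7.59 CPM in wild-type no-Cre libraries (SD, n = 6 each), a log2 fold change of -0.05 (95% interval -0.78 to 0.67). Slc3a2 averaged 39.0 ± 13.3 CPM in mutant and 33.2 ± 15.2 CPM in wild-type no-Cre libraries, a log2 fold change of 0.29 (95% interval -0.36 to 0.94).

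The difference between the genotype effects with and without Cre was then tested over all 23 libraries. For Slc7a1 it was 1.91 on the log2 scale (SE 0.39, adjusted p = 0.0838), and for Slc7a5 it was 1.88 (SE 0.50, adjusted p = 0.327). Of the 10 transporters tested, 0 changed at an adjusted p under 0.05, against 3 of 14468 genes (0.0207%), with 1 transporter called by DESeq2 (Slc7a1, 1.83, adjusted p = 0.0147) and 3 by limma-voom. At an unadjusted p under 0.05, 6 of the 10 had a larger rise with Cre, against 6.01% of all genes. Slc1a5 and Slc7a11, among these 6, held 4 and 58 counts over the wild-type Cre libraries. These 2 genes passed the low-count filter through other groups, and so carry no weight in this count or in the median below. Slc7a3 also enters that median, with 38 counts over the wild-type Cre libraries against 448 over the mutant Cre libraries. It carries no weight there either. Slc7a1 passed without mutant Cre replicate 6 (2.07, adjusted p = 0.0366) or wild-type no-Cre replicate 4 (2.01, adjusted p = 0.0458). Each was the lowest library of its group for this gene, so a larger difference was fixed in advance. The median difference over the 10 was 1.64 and over all genes 0.12.

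**Figure D4:**
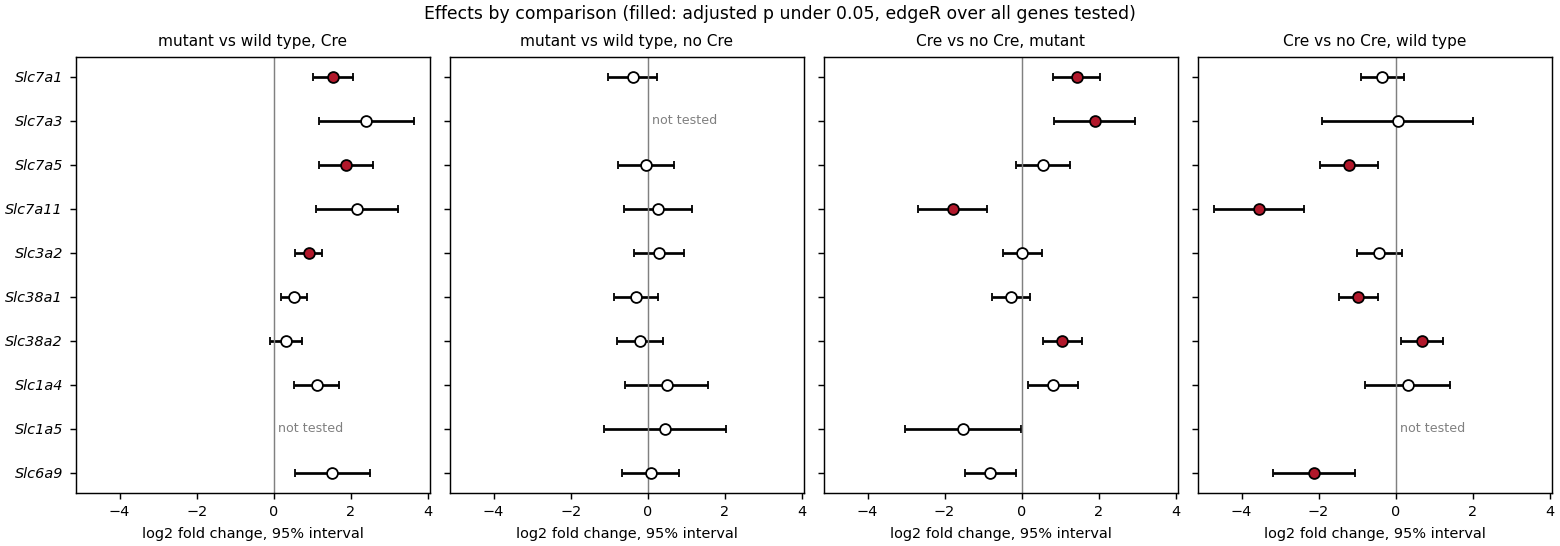
Fitted log2 fold changes of the 10 transporters with 95% intervals in the 4 pairwise comparisons, positive where the mutant or the Cre group is higher; filled points have an adjusted p under 0.05 over all genes tested. With Cre all 9 tested genes lie right of 0 in the genotype comparison and 3 are filled, while without Cre every interval spans 0.

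Precipitates with and without Cre were compared to ask which transporter transcripts the tagged ribosomes carried beyond the background. These comparisons use the same Cre libraries as the genotype comparison, so they are not independent of it. Slc7a5 (log2 fold change 0.55, SE 0.33, adjusted p = 0.208) and Slc3a2 (0.02, SE 0.24, adjusted p = 0.966) did not pass in mutants. Slc3a2 did not pass in wild type either (-0.43, SE 0.28, adjusted p = 0.21). In mutants, Slc7a1 (log2 fold change 1.42, SE 0.28, adjusted p = 0.00124), Slc7a3 (1.89, SE 0.50, adjusted p = 0.00839) and Slc38a2 (1.05, SE 0.24, adjusted p = 0.00304) were higher with Cre, and Slc7a11 (-1.79, SE 0.42, adjusted p = 0.00435) was lower. Thus 3 of the 10 tested rose and 1 fell, against 14.1% and 19.2% of 12741 genes, 1800 higher and 2447 lower. Slc7a3 had 51 counts over the 6 mutant no-Cre libraries and passed the low-count filter through the Cre libraries, where it is high, so its rise carries no weight in this count. With library totals alone 3248 genes were higher and 275 lower, the median of all genes was 1.13 in place of -0.14, and 5 transporters were higher and 0 lower. Slc1a4 had a log2 fold change of 0.81 (SE 0.31, adjusted p = 0.0516) and passed without mutant no-Cre replicate 1 (1.34, adjusted p = 0.000806), 4 (0.90, adjusted p = 0.0387) or 5 (0.89, adjusted p = 0.0277) or mutant Cre replicate 6 (1.06, adjusted p = 0.0161). Slc6a9 had -0.82 (SE 0.32, adjusted p = 0.0562) and passed without mutant Cre replicate 4 (-0.95, adjusted p = 0.0413) or 6 (-0.89, adjusted p = 0.0294). Slc1a5 had -1.52 (SE 0.71, adjusted p = 0.108) and passed without mutant Cre replicate 4 (-2.11, adjusted p = 0.0385). The only title number these groups share, 18405, holds 2 mutant Cre libraries and 1 mutant no-Cre library, so no replicated comparison within a number was possible. Without that number Slc7a11 had -1.22 (adjusted p = 0.0588). In wild type, Slc38a2 was higher with Cre (0.68, SE 0.25, adjusted p = 0.036), while Slc7a11 (-3.55, SE 0.55, adjusted p = 0.000105), Slc6a9 (-2.13, SE 0.50, adjusted p = 0.00272), Slc7a5 (-1.22, SE 0.36, adjusted p = 0.0102) and Slc38a1 (-0.97, SE 0.24, adjusted p = 0.00393) were lower. Thus 1 of the 9 tested rose and 4 fell, against 20% and 25.9% of 12485 genes. Slc7a11 had 58 counts over the 5 wild-type Cre libraries and passed the low-count filter through the no-Cre libraries, where it is high, so its fall carries no weight in this count. The wild-type rise of Slc38a2 did not pass when any 1 of 7 libraries was left out, wild-type Cre replicates 1, 3 and 5 or wild-type no-Cre replicates 3, 4, 5 and 6, with adjusted p from 0.0576 to 0.0968 and log2 fold changes of 0.53 to 0.69. It also did not pass with the title number as a block over 8 libraries (0.59, adjusted p = 0.0694), with the 5 CPM filter (0.47, adjusted p = 0.113) or with library totals only (0.59, adjusted p = 0.614). With library totals only, the wild-type falls of Slc6a9 (-1.7, adjusted p = 0.167), Slc7a5 (-0.91, adjusted p = 0.455) and Slc38a1 (-0.8, adjusted p = 0.479) did not pass either.

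The values behind these comparisons show where each transcript was most abundant. Slc38a2 averaged 45.1 ± 14.1 CPM in mutant Cre and 34.8 ± 5.69 CPM in wild-type Cre libraries, against 17.5 ± 4.46 CPM in mutant and 20.8 ± 5.93 CPM in wild-type no-Cre libraries. Slc7a1 averaged 37.8 ± 15.8 CPM in mutant Cre and 12.5 ± 1.76 CPM in wild-type Cre libraries, against 11.2 ± 2.90 CPM in mutant and 15.2 ± 4.70 CPM in wild-type no-Cre libraries. The wild-type cationic transporter level thus lay within the range of the untagged precipitate, and the Cre minus no-Cre difference there was -0.35 (SE 0.26, adjusted p = 0.293). Slc7a11 averaged 3.75 ± 1.09 CPM in mutant Cre and 0.761 ± 0.730 CPM in wild-type Cre libraries, against 10.4 ± 7.83 CPM in mutant and 9.03 ± 2.25 CPM in wild-type no-Cre libraries. Its highest levels were thus in the background precipitate of both genotypes. Slc6a9 showed the same order, with 11.04 ± 4.94 CPM in mutant Cre and 3.81 ± 3.45 CPM in wild-type Cre libraries, against 16.1 ± 4.07 CPM in mutant and 15.9 ± 6.91 CPM in wild-type no-Cre libraries, beside summed oligodendrocyte markers of 7024 to 14281 CPM without Cre in mutants and of 7504 to 12629 CPM without Cre in wild types.

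Levels of different genes were ordered on the deposited TPM, which divides by transcript length, within each library. In mutant Cre libraries, Slc3a2 had the highest median (40.9 TPM), followed by Slc7a5 (36.1 TPM), Slc7a1 (18.7 TPM), Slc38a2 (18.6 TPM), Slc1a4 (9.01 TPM), Slc6a9 (8.13 TPM), Slc38a1 (8.02 TPM), Slc7a3 (3.74 TPM), Slc7a11 (1.15 TPM) and Slc1a5 (0.32 TPM). Slc3a2 exceeded Slc7a5 in 5 of 6 libraries and Slc7a5 exceeded Slc7a1 in 6 of 6, whereas Slc7a1 exceeded Slc38a2 in 2 of 6 and Slc6a9 exceeded Slc38a1 in 2 of 6, so those neighbours had no fixed order. In wild-type Cre libraries the medians ran from Slc3a2 (8.01 TPM) through Slc38a2 (5.82 TPM), Slc7a5 (3.52 TPM), Slc7a1 (3.46 TPM), Slc38a1 (2.31 TPM), Slc1a4 (1.64 TPM), Slc6a9 (0.92 TPM), Slc7a3 (0.4 TPM) and Slc7a11 (0.16 TPM) to Slc1a5 (0 TPM). Slc38a2 thus ranked at position 4 in mutants and position 2 in wild type, Slc3a2 was highest in all 4 groups, and each neighbour in the wild-type order lay above the next in 3 to 5 of 5 libraries. Without Cre, Slc7a5 and then Slc6a9 followed Slc3a2 in both genotypes, at medians of 9.41 and 4.96 TPM in mutant and 8.71 and 7.85 TPM in wild-type no-Cre libraries. TPM values were not set against each other between groups, because ribosomal RNA took different shares of the libraries.

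Other amino acid transporters were taken from a list of 48 further genes, of which 25 passed the filter on low counts in the Cre genotype comparison. Of these 25, 0 changed at an adjusted p under 0.05 in edgeR, and at an unadjusted p under 0.05 2 were lower and 0 higher in mutants. At that p 8.16% of all genes were higher, and the share lower is not given here. The median log2 fold change of these 25 was 0.32, against 1.51 for the 9 transporters above and 0.06 for all genes. The 10 transporters and this list were chosen with earlier results of these data known, so the contrast is a description only. Slc7a3 and Slc7a11, which passed the filter through the mutant libraries, also enter the median of 1.51. Slc7a6, which encodes another light chain partner of Slc3a2, ranged from 1.05 to 2.05 CPM in mutant Cre and from 2.34 to 4.79 CPM in wild-type Cre libraries, groups that did not overlap, at a log2 fold change of -1.06 (SE 0.31, adjusted p = 0.136). Slc1a1, a glutamate and cysteine transporter of neurons, averaged 25.2 ± 2.26 CPM in mutant Cre and 31.1 ± 3.36 CPM in wild-type Cre libraries, a log2 fold change of -0.33 (SE 0.15, adjusted p = 0.277). Slc6a11, a GABA transporter of astrocytes, averaged 46.7 ± 33.8 CPM in mutant Cre and 23.3 ± 15.1 CPM in wild-type Cre libraries, a log2 fold change of 1.06 (SE 0.51, adjusted p = 0.299).

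**Figure D5:**
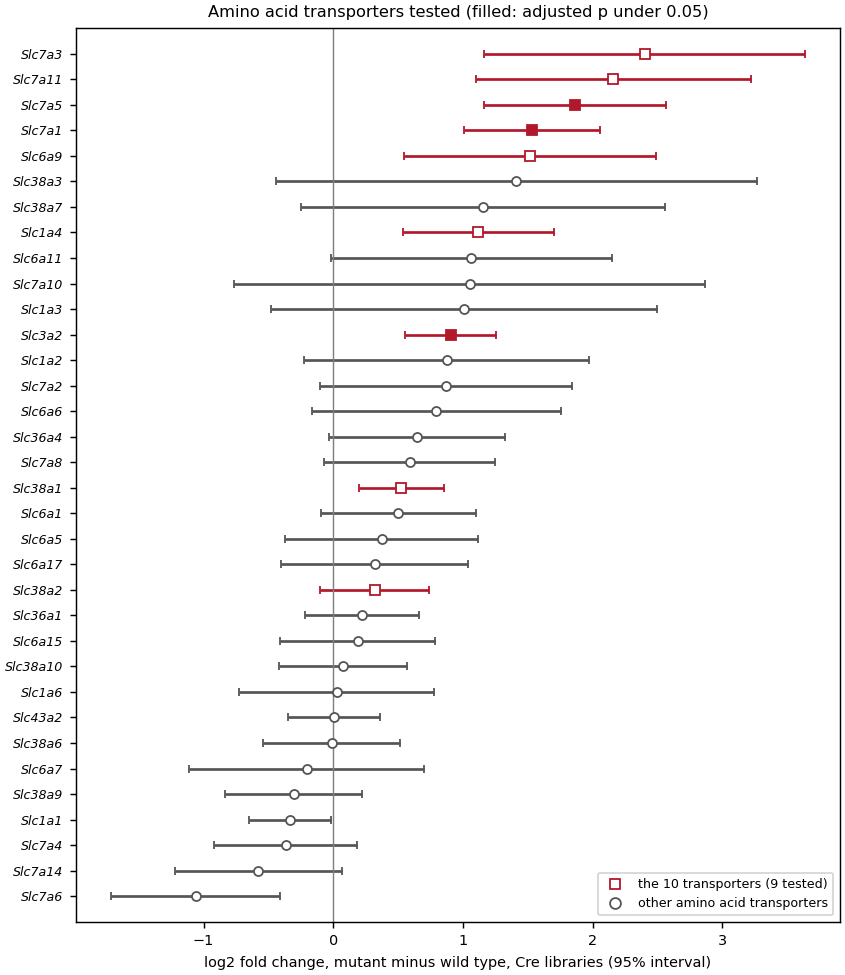
Log2 fold change (mutant minus wild type, Cre libraries) with 95% interval of the 9 transporters tested (red squares) and of 25 other amino acid transporters (grey circles); filled symbols have an adjusted p under 0.05. The 3 filled symbols are Slc7a5, Slc7a1 and Slc3a2, and Slc7a6 lies lowest at -1.06.

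Genes that handle what the transporters carry were read from 3 further lists. Among 11 tested genes of glycine handling, 1 rose in mutants, Shmt2, the mitochondrial enzyme that interconverts serine and glycine. It averaged 14.1 ± 3.60 CPM in mutant Cre and 5.13 ± 1.41 CPM in wild-type Cre libraries, a log2 fold change of 1.41 (SE 0.23, adjusted p = 0.0148), and the other 10 did not pass. The next smallest p values belonged to Glra3, a glycine receptor subunit (0.74, SE 0.39, adjusted p = 0.332), and Slc32a1, the vesicular transporter of GABA and glycine, with 5.92 ± 2.43 CPM in mutant Cre and 3.91 ± 1.59 CPM in wild-type Cre libraries (0.59, SE 0.35, adjusted p = 0.389). Among 12 tested genes of cystine and glutathione metabolism 0 changed in edgeR, with 2 higher and 3 lower at an unadjusted p under 0.05. The smallest p values were those of Chac1, which degrades glutathione (1.24, SE 0.26, adjusted p = 0.062), Cth, which makes cysteine from cystathionine (2.59, SE 0.76, adjusted p = 0.141), and Gpx4, which reduces lipid peroxides (-0.50, SE 0.17, adjusted p = 0.183). Among 19 tested genes of amino acid sensing 0 changed in edgeR, with 3 higher and 1 lower at an unadjusted p under 0.05. At that p 8.16% of all genes were higher. The share lower is not given here, so the unadjusted counts of these lists are descriptions only. Atf4 itself averaged 47.8 ± 10.0 CPM in mutant Cre and 25.5 ± 4.87 CPM in wild-type Cre libraries (log2 fold change 0.86, SE 0.18, adjusted p = 0.0676), Sesn2, a leucine sensor of the mTORC1 pathway, had a log2 fold change of 1.42 (SE 0.37, adjusted p = 0.111), and Depdc5, a subunit of the GATOR1 complex, had 0.53 (SE 0.21, adjusted p = 0.248).

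For the 3 transporters that rose, the genes with the most similar pattern over the 23 libraries were found by the root mean square difference of centred log2(CPM + 1) among 12833 genes. For Slc7a5 they were Psat1, an enzyme of serine synthesis, at 0.481, Fam129a at 0.512 and Cdc42se2 at 0.565. Psat1 averaged 53.8 ± 8.98 CPM in mutant Cre and 13.4 ± 4.74 CPM in wild-type Cre libraries, against 28.9 ± 13.9 CPM in mutant and 24.9 ± 8.11 CPM in wild-type no-Cre libraries. For Slc7a1 they were Cdsn at 0.408, Adm2 at 0.417 and Cass4 at 0.418. Adm2, which encodes a peptide hormone of the adrenomedullin family, held 161 counts over the 6 mutant Cre libraries and was at 0 in every library of the other groups. For Slc3a2 they were Rufy1 at 0.312, Sf3b3 at 0.35 and Usp11 at 0.351. The measure uses all 4 groups, so a shared difference between groups counts towards likeness. It is not scaled to the spread of each gene. Cdsn and Cass4 held 6 and 2 counts over the wild-type Cre libraries, against 429 and 307 over the mutant Cre libraries. Like Adm2, they passed the low-count filter through the mutant Cre libraries, where they are high.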

How the data were processed

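RNA from anti-haemagglutinin precipitates of spinal cord was sequenced in 23 libraries. Reads were aligned with Bowtie2 2.2.0 and quantified with RSEM 1.2.12, per the submitters' processing notes. The build is not given in the sources used here. Each deposited table gives expected counts per gene, TPM and FPKM. The deposited expected counts carry no depth normalisation, the deposited TPM served only to order genes within libraries and for ratios, and the deposited FPKM was not used.

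Expected counts were rounded and tested with edgeR 4.0.16 in R 4.3.3 (filterByExpr at its minimum count, 10, and minimum total, 15, TMM factors, two-sided quasi-likelihood tests, Benjamini-Hochberg adjustment over all genes tested, threshold 0.05), each comparison on its own groups and the difference of genotype effects on all 23 libraries. CPM uses TMM-scaled library sizes over all 23 libraries, ribosomal RNA included. The edgeR scripts were tested on simulated data. Of 38924 gene identifiers, 37607 matched GENCODE M21 on GRCm38.

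The members and gene lists were chosen with earlier results of these data known. Named besides the 10 transporters were Chat, Gars and Rpl22, the called genes of each further list (or the 3 with the smallest p where fewer than 3 were called), and the 3 genes most like each called transporter, unnamed models left out. Replicate numbers follow the order of deposition and pair nothing. The labels do not state that libraries came from separate animals, so p-values reflect only the spread among libraries, which may be technical. Among 55 pairs of replicates 0 were identical, and counts differed by at least 8.53 in chi-square per degree of freedom.

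Tried instead were DESeq2 1.42.0, limma-voom (limma 3.58.1) with quality weights, RLE factors, library totals only, no filter, a filter at 5 CPM, all 23 libraries in one fit, the title number as a block, a glial covariate, an Xist covariate and each library left out. Added after the data were seen were the removal of ribosomal RNA genes, of title number 18405, or of mutant Cre replicates 4 and 6 with wild-type Cre replicate 2, and the ratios of transporters. The ratios used a pseudocount of 0.5 on counts and a smaller one on TPM.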

Additional observations from a re-analysis of the deposited data

Results flagged for a closer look

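Each transporter's level was examined for a library standing far from the rest of its group with Dixon's criterion, over 40 groups of 5 or 6 libraries, and 7 values stood apart, where chance gives about 1 in 20. Among mutant no-Cre libraries, Slc7a1 in replicate 1 was low at 6.12 CPM, against 10.8 CPM in the next lowest, and replicate 5 was low in Slc7a5 at 3.45 CPM and high in Slc1a5 at 4.43 CPM. That replicate had the fewest counts without ribosomal RNA, 0.594 M. Its values of Slc7a5 and Slc1a5 rested on 7 and 9 counts, and 3 counts represent 1.48 CPM there. In the Cre groups 1 value stood apart, Slc38a1 at 27.6 CPM in wild-type Cre replicate 2. That library also set the upper end of Slc7a1, Slc7a5, Slc7a11, Slc1a4, Slc1a5 and Slc6a9 in wild-type Cre. Among wild-type no-Cre libraries, replicate 2 was high in Slc3a2 at 63.7 CPM and held 0 CPM of Slc1a5, and replicate 1 was low in Slc6a9 at 3.15 CPM.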

How the results depend on the processing

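In the Cre genotype comparison the number of transporters called, 3 of 9 tested, was 0 with library totals only, 7 with DESeq2, 8 with limma-voom, 1 with the title number as a block and 8 without the 3 glia-rich libraries (mutant Cre 4 and 6, wild-type Cre 2), and ranged from 0 to 8 as each library was left out. It was 0 without wild-type Cre replicate 3, 4 or 5, 1 without wild-type Cre replicate 1 or mutant Cre replicate 3 or 5, and 8 without wild-type Cre replicate 2. The log2 fold changes of the 9, where fitted, stayed above 0 in these alternatives and in RLE factors, no filter, a filter at 5 CPM, all 23 libraries in one fit, the 2 covariates and the removal of ribosomal RNA genes or title number 18405. Over all genes the 41 calls became 17 with library totals only, 413 with DESeq2, 868 with limma-voom, 89 with no filter, 11 with all 23 libraries, 19 with the block and 1285 without the 3 glia-rich libraries, and ranged from 10 to 1054 as each library was left out. Slc3a2 lost its call also with all 23 libraries (adjusted p = 0.377), the glial covariate (0.0587) and number 18405 left out (0.0742).

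For Cre against no Cre in wild type, 5 transporters and 5738 genes became 1 and 906 with library totals only, with 3746 genes at the 5 CPM filter, and ranged over 4 to 6 and 4878 to 6474 as each library was left out. In mutants, 4 and 4247 became 8 and 6990 with limma-voom and 8175 genes with no filter, and ranged over 4 to 6 and 3451 to 4989 as each library was left out. Without the glia-rich libraries they became 7 transporters, 4 higher and 3 lower, and 4974 of 13385 genes. The shared title number holds 3 libraries, 1 of them without Cre, so it gives no measure of stability and no count. Without Cre, 0 transporters were called in any alternative, with 31 genes called under no filter and 0 as each library was left out. For the difference of genotype effects, 0 transporters became 1 with DESeq2, 3 with limma-voom, 1 without number 18405 and 1 without the glia-rich libraries, and 0 to 1 as each library was left out; 3 genes became 1 with library totals only, 42 with DESeq2, 169 with limma-voom and 9 with no filter, and 1 to 8 as each library was left out. For that difference, counts over all genes without number 18405 or without the glia-rich libraries are not given here. The causes of the changes in these counts were not tested.

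Reversed signs occurred only among values that did not pass. In wild type with against without Cre, Slc7a3 was -0.77 with limma-voom, -0.02 with all 23 libraries, -0.18 without the glia-rich libraries, and -0.56 to 0.38 as each library was left out. In mutants, library totals only gave Slc38a1 0.78, Slc1a5 0.20 and Slc6a9 0.48, the 5 CPM filter gave Slc3a2 -0.13 (and -0.09 to 0.43 as each library was left out), and the shared title number gave Slc1a5 0.03. Between genotypes without Cre, library totals only gave Slc3a2 -0.22, Slc1a4 -0.16, Slc1a5 -0.60 and Slc6a9 -0.48; limma-voom gave Slc7a5 0.18, Slc1a5 -0.24 and Slc6a9 -0.10; the shared title number gave Slc7a5 0.06, Slc3a2 -0.34, Slc38a1 0.03 and Slc6a9 -0.34; the 5 CPM filter gave Slc7a5 0.00, the glial covariate Slc7a5 0.22, and number 18405 left out Slc7a11 -0.14. As each library was left out these ranged over -0.15 to 0.14 for Slc7a5, -0.14 to 0.43 for Slc7a11, -0.15 to 0.67 for Slc1a5 and -0.14 to 0.20 for Slc6a9.

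No paired analysis was possible because replicate numbers follow the order of deposition and pair nothing; the title number, a possible batch and not a pairing of libraries, was fitted as a block in 3 comparisons. Depth limited Slc1a5, Slc7a3 and Slc7a11 most, with 4, 38 and 58 counts over the wild-type Cre libraries.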

Other observations

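Some transporters outside the 10 followed the untagged precipitate in both genotypes. Slc1a2, the main glutamate transporter of astrocytes, averaged 86.6 ± 36.1 CPM in mutant Cre and 48.9 ± 57.5 CPM in wild-type Cre libraries, against 338 ± 185 CPM in mutant and 487 ± 172 CPM in wild-type no-Cre libraries. Of the 48 further amino acid transporters, 26 were tested with against without Cre in wild type, where 3 were higher and 11 lower, and 27 in mutants, where 2 were higher and 7 lower, against 20% higher and 25.9% lower of all genes in wild type and 14.1% higher and 19.2% lower in mutants. Slc7a8, another light chain partner of Slc3a2, had a higher mean CPM with Cre in both genotypes, and its test results are not given here. In mutants it ranged over 4.00 to 16.1 CPM with Cre against 0 to 4.97 CPM without Cre, so the groups overlapped. In wild types it ranged over 3.39 to 8.75 CPM with Cre against 1.35 to 3.04 CPM without Cre.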
